A study of Mus musculus with 9 samples.

Results

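The 10 genes described here encode the cytosolic chaperones of the heat shock response and the transcription factor that drives it: Hsf1, Hspa1a, Hspa1b, Hspa8, Hsph1, Hsp90aa1, Hsp90ab1, Hspb1, Dnajb1 and Bag3. They were taken by symbol, as GENCODE M21 assigns symbols to Ensembl identifiers, from the 29678 genes of the count files. All 10 were found and all 10 passed the filter on low counts. Poly(A) RNA of mouse kidneys taken 24 h after reperfusion was sequenced in 3 groups: sham surgery (sham), ischemia and reperfusion of both kidneys (bIRI), and kidneys given the sodium salt of beta-hydroxybutyrate (BHB), a ketone body, before the same injury (BHB plus bIRI). The labels give no strain, genotype, sex or age, no dose or time of BHB, no vehicle for the other groups, and no number of animals behind a library, so p-values measure only the spread between libraries. There were 3 libraries of sham, 2 of bIRI (replicates 1 and 3) and 3 of BHB plus bIRI, because the values listed for bIRI replicate 2 equalled the rounded-down mean of the other bIRI libraries in 100% of genes and were left out.

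Cytosolic chaperones hold unfolded proteins in solution and help them fold again. HSF1 is a transcription factor that is kept inactive by chaperones in unstressed cells and, when unfolded proteins draw those chaperones away, forms trimers that bind repeated nGAAn units in DNA, the heat shock element. HSP70 proteins bind unfolded stretches in a cycle that J-domain proteins start by promoting ATP hydrolysis and that nucleotide exchange factors end, HSP90 proteins hold late folding states of kinases and receptors, and small heat shock proteins bind unfolded chains without using ATP. In the kidney, tubular cells deprived of blood flow lose ATP and their actin cytoskeleton, and inducible HSP70 and HSP27, the HSPB1 protein, are classic markers of that stress.

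On GRCm38, the inducible HSP70 genes Hspa1a (ENSMUSG00000091971, chr17:34969190-34972156, minus strand) and Hspa1b (ENSMUSG00000090877, chr17:34956436-34959238, minus strand) are neighbours, and Hsp90ab1 (ENSMUSG00000023944, chr17:45567775-45573271, minus strand) lies on the same chromosome. Hspb1 (ENSMUSG00000004951, chr5:135887919-135889563, plus strand) and Hsph1 (ENSMUSG00000029657, chr5:149614287-149636376, minus strand) lie on chromosome 5. The others are Hsf1 (ENSMUSG00000022556, chr15:76477422-76501913, plus strand), Hspa8 (ENSMUSG00000015656, chr9:40800984-40810087, plus strand), Hsp90aa1 (ENSMUSG00000021270, chr12:110690605-110702728, minus strand), Dnajb1 (ENSMUSG00000005483, chr8:83608193-83612653, plus strand) and Bag3 (ENSMUSG00000030847, chr7:128523616-128546981, plus strand). Hspa1a overlaps an opposite-strand gene, Gm20481, not analysed here.

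The libraries held 33477985 to 45909063 counts. The members had between 263 and 116218 counts in a library, so all were well detected. The members together took 0.34 to 0.358% of the counts in sham, 0.449 and 0.47% in bIRI, and 0.391 to 0.46% in BHB plus bIRI. Levels below are in CPM, counts per 10 to the power of 6 counts of a library whose size was scaled by the TMM method. On this scale the members summed to 3731 to 3845 CPM in sham and to 4325 to 4741 CPM in BHB plus bIRI. In bIRI they summed to 4240 CPM in replicate 1 and 3281 CPM in replicate 3, the latter below all sham libraries. The higher share in bIRI thus depended on the scaling for replicate 3. The 2 bIRI libraries lay far apart: bIRI replicate 3 was at -130.2 on the second principal component (22.7% of the variance) and bIRI replicate 1 at -5.9. The share of counts from mitochondrially encoded genes was 11.2 to 13.3% for sham, 15.9% for each bIRI library and between 24 and 30.3% for BHB plus bIRI. Kidney identity was seen in the proximal tubule markers (Slc34a1, Lrp2, Slc5a2, Slc5a12 and Cubn, summed), which were at 7322 to 8713 CPM in sham and at 768 to 1043 CPM in the injured libraries. The tubular injury markers Havcr1, Lcn2, Krt20 and Vcam1 summed to 13.5 to 20.3 CPM in sham, 5108 and 1588 CPM in bIRI replicates 1 and 3, and 2849 to 3458 CPM in BHB plus bIRI. In such bulk samples, fewer cells of a type and less RNA per cell cannot be told apart.

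Promoters of 6 of the 10 members were matched in RefSeq (GRCm38.p6), each covering 250 bases before and 50 after a transcription start, with a second start for Hsph1 and Dnajb1. They were searched for the heat shock element as 2 facing units, GAANNTTC or TTCNNGAA, each of which reads the same on both strands. At least 1 such element was found in Hspa1a, Hspa1b, Hspb1, Hsph1 and Bag3 and none in Dnajb1, while 15.1% of the 32851 RefSeq promoters of 300 bases held one. For Bag3 and Dnajb1 the 50 bases after the RefSeq start were in no GENCODE transcript of the gene. Positions in those promoters therefore depend on the annotation. The second Dnajb1 stretch lay wholly inside the annotated gene. A longer form with 3 units in a row, GAANNTTC followed by NNGAA, on either strand, was found in Hsph1 and in 0.603% of all promoters. TATAAA, found in 13.6% of all promoters, was in none of the promoters of these 6 members. CCAAT, found in 37.4% on either strand, was in Hspa1a, Hspa1b, Hsph1 and Dnajb1. The 150 bases before the start are printed for 4 of these genes, 5′ to 3′ on the strand of the gene, with capitals marking each element, because Hspa1a and Hspa1b have nearly the same promoter and unequal changes, and Hspb1 and Hsph1 each hold several elements. No relation between elements and levels was tested.
Hspa1a, chr17:34972157-34972306, minus strand: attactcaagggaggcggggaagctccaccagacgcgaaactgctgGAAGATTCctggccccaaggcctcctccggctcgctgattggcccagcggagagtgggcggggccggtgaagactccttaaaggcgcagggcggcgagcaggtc
Hspa1b, chr17:34959239-34959388, minus strand: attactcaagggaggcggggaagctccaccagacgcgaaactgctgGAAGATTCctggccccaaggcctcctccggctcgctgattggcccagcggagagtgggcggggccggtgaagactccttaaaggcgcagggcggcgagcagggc
Hspb1, chr5:135887769-135887918, plus strand: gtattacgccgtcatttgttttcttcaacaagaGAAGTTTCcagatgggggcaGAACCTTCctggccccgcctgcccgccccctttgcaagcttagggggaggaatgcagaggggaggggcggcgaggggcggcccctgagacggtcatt
Hsph1, chr5:149636337-149636486, minus strand: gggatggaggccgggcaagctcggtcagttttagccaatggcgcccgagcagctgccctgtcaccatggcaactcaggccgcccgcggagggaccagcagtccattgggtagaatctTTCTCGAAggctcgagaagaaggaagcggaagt
In Hsph1 the 3-unit form lay just after the start, from +37 to +49, and Bag3 had its element from +43 to +50, so only those sites are printed.
Hsph1 site, chr5:149636288-149636311, minus strand: aatgctgcagaTTCTGGAAAGTTC
Bag3 site, chr7:128523609-128523632, plus strand: tctctggatgggaccaGAAGTTTC
The Hspa1a and Hspa1b promoters were identical at 296 of 300 bases and at 149 of the 150 printed, and both held the element at -104 to -97 and CCAAT at -67 to -63. Hspb1 had elements at -117 to -110 and at -97 to -90, and Hsph1 had one at -33 to -26. A match is a description of these letters and not evidence of binding.

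**Figure D1:**
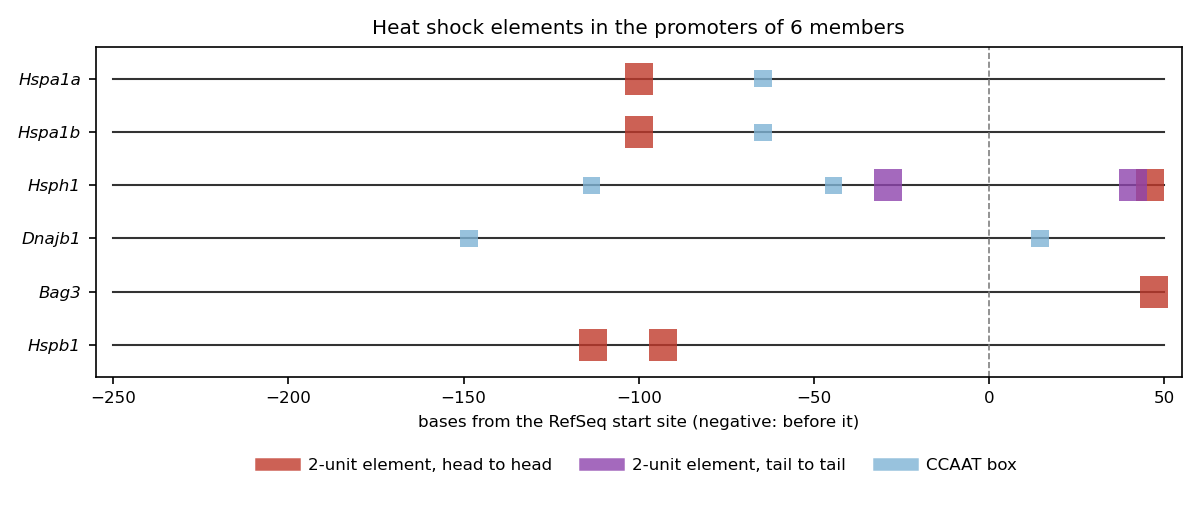
Positions of heat shock elements and CCAAT boxes in the member promoters in the RefSeq table, drawn against distance from the transcription start in bases, at the first start listed for each gene. Hspa1a and Hspa1b share 1 layout, with the element at -104 to -97, while Bag3 has its element only after the start and Dnajb1 has none.

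Per kilobase of transcript, the constitutive members stood above the inducible ones in every group. Hspa8, the constitutive HSP70, had the highest level in all 3 groups, at 969 ± 32.6 CPM per kb in sham (SD, n = 3), and Hsp90ab1, the constitutive HSP90, was next at 431 ± 13.1. In sham, Hsp90aa1 followed at 54.6 and Hsph1 at 21. Hspb1, Dnajb1, Hsf1 and Bag3, between 13.7 and 11.9 CPM per kb, overlapped each neighbour in that order, and Hspa1b (5.25) and Hspa1a (2.67) were lowest. In bIRI the first places were kept by Hspa8 (729) and Hsp90ab1 (456), and the next were Hsp90aa1 (132), Hspb1 (106), Hsph1 (35.8), Hspa1b (26.4) and Bag3 (18.6), neighbours whose ranges overlapped. In BHB plus bIRI, Hspb1 was the third at 221 CPM per kb, above Hsp90aa1 at 111 with no overlap, and Hspa1b (27.1), Hsph1 (19.5), Dnajb1 (19.4) and Hsf1 (17.2) overlapped in turn. Hspa1a remained the lowest in that group at 7.78.

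**Figure D2:**
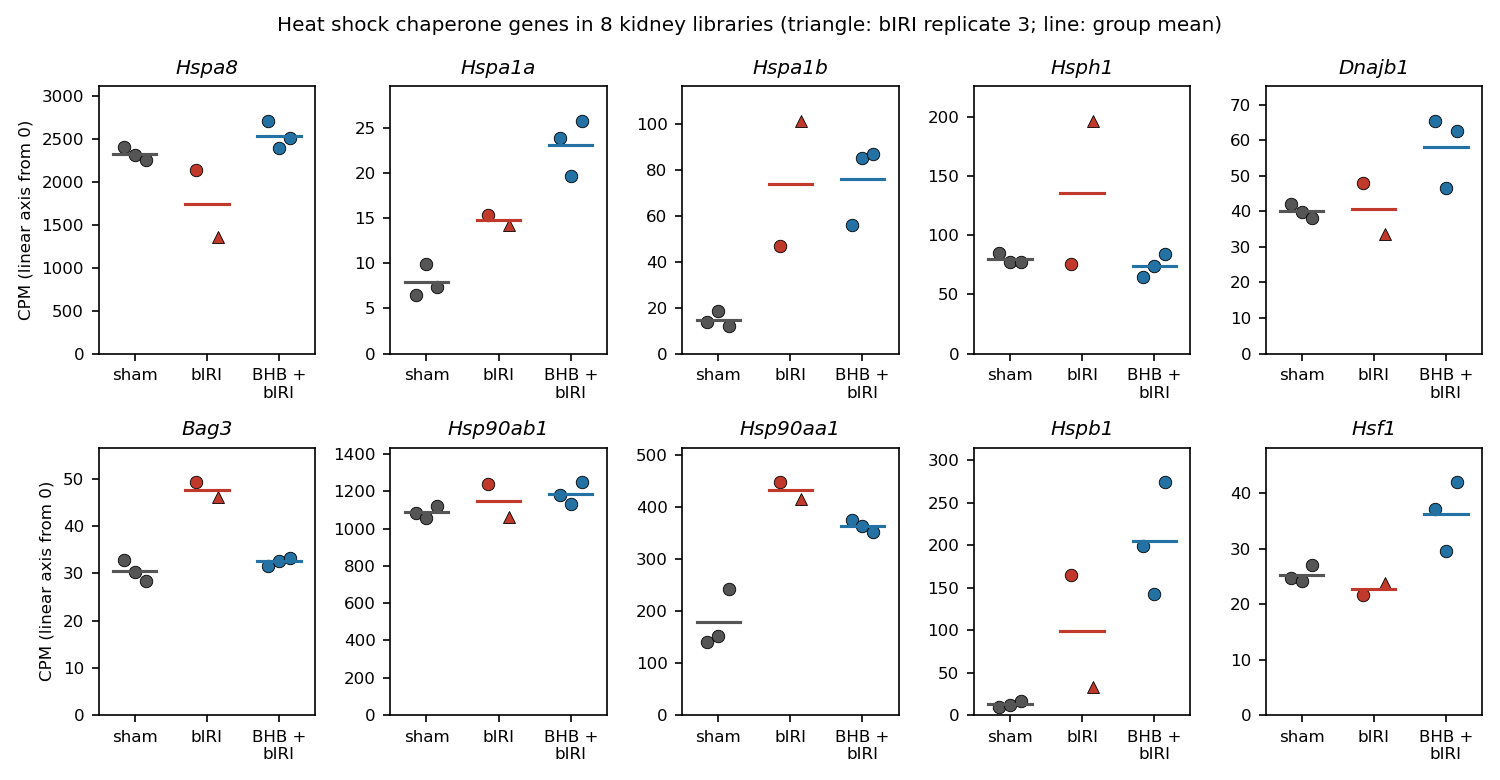
Level of each member in each of the 8 libraries, in CPM on linear axes from 0, with sham, bIRI and BHB plus bIRI side by side, a line at each group mean and a triangle for bIRI replicate 3. Hspa1a, Hspa1b, Hsp90aa1 and Hspb1 lie above every sham library in all injured libraries, and Hspb1, Hspa1b and Hsph1 differ widely between the 2 bIRI libraries.

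The first comparison asked how ischemia-reperfusion injury changed the chaperones. In bIRI, 5 of the 10 members rose against sham: the inducible HSP70 genes Hspa1a and Hspa1b, the inducible HSP90 gene Hsp90aa1, the small heat shock protein gene Hspb1, and Bag3, a nucleotide exchange factor of HSP70. The largest changes were those of Hspb1 (7.77-fold) and Hspa1b (5.03-fold), and no member fell. The constitutive genes Hspa8 and Hsp90ab1, the J-domain gene Dnajb1 and Hsf1 itself did not pass the threshold. For comparison, edgeR called 18.9% of the 17967 genes tested higher and 16.2% lower at an adjusted p of 0.05. At an unadjusted p under 0.05, 6 members were higher and 0 lower, beside 25% and 20.7% of all genes, and DESeq2 called 5 higher and 0 lower. The median log2 fold change was 0.70 over the members and 0.09 over all genes.

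Hspa1a and Hspa1b encode almost the same stress-inducible HSP70. Hspa1b was at 13.8, 18.4 and 11.9 CPM in the sham libraries and at 46.6 and 101 CPM in bIRI replicates 1 and 3. Both bIRI libraries lay above all sham libraries, and replicate 3 stood more than 2 times above replicate 1. The log2 fold change was 2.33 (SE 0.34, adjusted p = 0.000959 by edgeR's quasi-likelihood test), with 1.66 from bIRI replicate 1 alone and 2.71 from replicate 3 alone. Hspa1a, at 6.54, 9.86 and 7.39 CPM in sham, was at 15.3 and 14.3 CPM in bIRI, with no overlap and with close bIRI values (log2 fold change 0.90, SE 0.22, adjusted p = 0.0124). The ratio of Hspa1b to Hspa1a counts was 1.61 to 2.11 in sham, 3.05 in bIRI replicate 1 and 7.1 in replicate 3. The transcripts share 47.1% of the 100-base windows of Hspa1a and 49.9% of those of Hspa1b, so reads can be split between them or left uncounted, and how reads with several matches were counted is not given in the sources used here. Summed, the pair gave a log2 fold change of 1.97 (SE 0.29, adjusted p = 0.000977).

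Among the other parts of the HSP70 machine, Bag3 rose and the rest did not pass the test. Bag3, which links HSP70 to small heat shock proteins and to autophagy, was at 33, 30.3 and 28.5 CPM in sham and at 49.3 and 46.1 CPM in bIRI. The bIRI libraries agreed closely and lay above all sham libraries (log2 fold change 0.64, SE 0.15, adjusted p = 0.00956), although without sham replicate 2 the adjusted p was 0.053. Hspa8, which folds new proteins and uncoats clathrin in unstressed cells, was at 2403, 2311 and 2248 CPM in sham and at 2134 and 1356 CPM in bIRI. Both bIRI values were below the sham range, replicate 3 by far (log2 fold change -0.41, SE 0.25, adjusted p = 0.237), and with replicate 3 as the only bIRI library the change was -0.85 (adjusted p = 0.00664). A processed copy, Gm15459, shares 58.5% of the Hspa8 windows and had 689 to 1487 counts in these libraries. Dnajb1, the J-domain protein that is the usual inducible partner of HSP70, was at 42.1, 39.8 and 38.2 CPM in sham and at 47.9 and 33.6 CPM in bIRI. Its bIRI libraries lay on either side of the sham range, and the log2 fold change was 0.02 (95% confidence interval -0.45 to 0.49).

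Hsph1, the HSP110 that acts as a nucleotide exchange factor and helps HSP70 take aggregates apart, differed widely between the bIRI libraries. It was at 85.3, 77.6 and 77.1 CPM in sham, at 75.5 CPM in bIRI replicate 1 and at 197 CPM in bIRI replicate 3. Replicate 1 was just below the sham range and replicate 3 more than 2 times above it. The log2 fold change was 0.77 (SE 0.33, adjusted p = 0.0948), from -0.08 (adjusted p = 0.762) with replicate 1 alone to 1.23 (adjusted p = 0.000219) with replicate 3 alone. These fits with 1 bIRI library assume that it varies like the other groups. In the same direction, the thick ascending limb markers Umod, Slc12a1 and Kcnj1 summed to 1502 CPM in bIRI replicate 1 and 4258 CPM in replicate 3, against 1804 to 3335 CPM in sham, and the collecting duct markers Aqp2, Aqp3 and Scnn1g to 391 and 834 CPM, against 418 to 549 CPM. In BHB plus bIRI these sums were 266 to 829 CPM, below sham, and 602 to 674 CPM, above sham. Hsph1 was at 64.4 to 83.7 CPM in that group, so the parallel was limited to the bIRI libraries. None of these genes was at 0 in any library, and their part in the Hsph1 values was not tested.

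Of the HSP90 pair, the inducible gene rose and the constitutive one did not pass the test. Hsp90aa1 was at 142, 153 and 243 CPM in sham and at 448 and 417 CPM in bIRI. The bIRI libraries were close to each other and above all sham libraries, of which replicate 3 was the highest (log2 fold change 1.27, SE 0.25, adjusted p = 0.00408). The call held with either bIRI library as the only one. Hsp90aa1 shares 39.6% of its windows with the pseudogene Gm12346, which had 23 to 172 counts. Hsp90ab1, at 1086, 1055 and 1121 CPM in sham and at 1237 and 1060 CPM in bIRI, had a log2 fold change of 0.08 (95% confidence interval -0.37 to 0.53). One bIRI library lay above the sham range and the other within it.

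Hspb1 encodes HSP27, a small heat shock protein that also caps actin filaments. It was at 9.29, 12.1 and 16.8 CPM in sham, at 165 CPM in bIRI replicate 1 and at 32.7 CPM in replicate 3. Both bIRI libraries were above all sham libraries, but replicate 1 was about 5 times replicate 3, the reverse of the order seen for Hspa1b and Hsph1. The log2 fold change was 2.96 (SE 0.56, adjusted p = 0.00385), 3.70 (adjusted p = 7.21e-05) with replicate 1 alone and 1.29 (adjusted p = 0.0161) with replicate 3 alone. The 5 smooth muscle markers Myh11, Acta2, Tagln, Cnn1 and Des were high in the same libraries, with a sum of 94.7 to 149 CPM in sham, 509 and 127 CPM in bIRI replicates 1 and 3, and 475 to 557 CPM in BHB plus bIRI. The injury markers given above were likewise higher in bIRI replicate 1 than in replicate 3. No gene of either list was at 0 in any library, and their part in the Hspb1 values was not tested. The skeletal muscle markers Acta1, Ckm, Myh4 and Tnnt3 summed to at most 0.969 CPM.

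Hsf1, the factor itself, was at 24.6, 24.1 and 27.1 CPM in sham and at 21.5 and 23.8 CPM in bIRI. The bIRI values were slightly below the sham range, and the log2 fold change was -0.16 (SE 0.19, adjusted p = 0.545). With offsets for transcript length and GC content it was 0.15 (adjusted p = 0.45). The activity of HSF1 is set largely by its protein state, on which RNA levels do not bear.

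**Figure D3:**
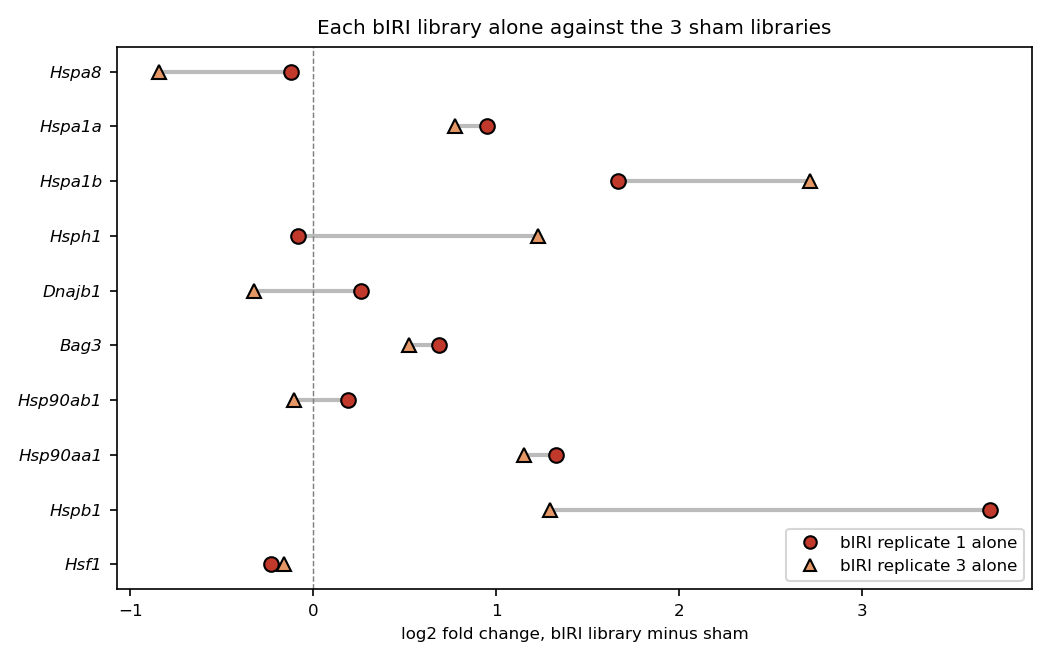
Log2 fold change of each member in bIRI against sham, with bIRI replicate 1 (circles) or replicate 3 (triangles) as the only bIRI library. Hspa1a, Hsp90aa1 and Bag3 change little with the library used, while Hspb1 goes from 3.70 to 1.29 and Hsph1 from -0.08 to 1.23.

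The second comparison asked whether BHB before the injury changed the chaperones. Against bIRI, 1 member was called higher in BHB plus bIRI, Hsf1, and 1 lower, Bag3, at a background of 4.88% of genes higher and 8.65% lower. Neither call held when only these groups were fitted (adjusted p = 0.136 for Hsf1 and 0.137 for Bag3) or when any sham library was left out. Of the 5 genes that had risen after injury, Bag3 differed from bIRI by the test and Hspa1a, Hspa1b, Hsp90aa1 and Hspb1 did not pass it. At an unadjusted p under 0.05, 3 members were higher and 2 lower, beside 14.9% and 19.6% of all genes. The median log2 fold change was 0.28 over the members and -0.05 over all genes.

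Hsf1 was at 37.1, 29.5 and 41.9 CPM in BHB plus bIRI. All 3 libraries were above both bIRI and all sham libraries, with replicate 2 the closest to them (log2 fold change 0.68 against bIRI, SE 0.19, adjusted p = 0.0452). Over 12390 genes this comparison ran with transcript length (Spearman's rho = -0.537) and with GC content (rho = 0.446), as a description across genes that are not independent replicates. With offsets for these properties the Hsf1 change was 0.24 (adjusted p = 0.339). Bag3 was at 31.7, 32.7 and 33.3 CPM in BHB plus bIRI, which is inside or next to the sham range and below both bIRI libraries (log2 fold change -0.55, SE 0.15, adjusted p = 0.0418). With the offsets it was -0.79 (adjusted p = 0.0518), and without bIRI replicate 3 it was -0.60 (adjusted p = 0.0577).

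The inducible HSP70 genes did not pass the test of BHB plus bIRI against bIRI. Hspa1a was at 23.9, 19.6 and 25.8 CPM, above both bIRI libraries in all 3 (log2 fold change 0.64, SE 0.23, adjusted p = 0.0806). Hspa1b was at 55.9, 85.2 and 86.7 CPM, between the bIRI libraries, with a log2 fold change of 0.04 (95% confidence interval -0.71 to 0.79). Its sign depended on the bIRI library used, 0.70 with replicate 1 alone and -0.36 with replicate 3 alone. The summed pair gave 0.16 (SE 0.29, adjusted p = 0.73). Dnajb1 was at 65.4, 46.5 and 62.4 CPM, with replicate 2 just below the higher bIRI library (log2 fold change 0.51, SE 0.21, adjusted p = 0.121). With bIRI replicate 3 as the only bIRI library, the Dnajb1 change was 0.84.

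Hspa8 was at 2709, 2396 and 2509 CPM in BHB plus bIRI, above both bIRI libraries and partly inside the sham range. Its log2 fold change against bIRI was 0.54 (SE 0.26, adjusted p = 0.164), and it was 0.25 with bIRI replicate 1 alone and 0.96 with replicate 3 alone. Hsph1 was at 64.4, 74.2 and 83.7 CPM, a range that overlapped bIRI replicate 1 and lay far below replicate 3. The change of -0.88 (SE 0.33, adjusted p = 0.0926) was -0.03 with replicate 1 alone and -1.35 with replicate 3 alone. For the HSP90 genes, Hsp90aa1 was at 376, 364 and 353 CPM, below both bIRI libraries (log2 fold change -0.25, 95% confidence interval -0.80 to 0.31), and Hsp90ab1 at 1179, 1134 and 1248 CPM overlapped them (0.05, -0.41 to 0.50). The Hsp90aa1 value was 0.09 with the length and GC offsets. Hspb1 was at 199, 143 and 274 CPM, on either side of bIRI replicate 1 and above replicate 3. Its log2 fold change was 1.05 (SE 0.57, adjusted p = 0.22), from 0.31 with bIRI replicate 1 alone to 2.70 with replicate 3 alone. Several of these values, and the count of members called in this comparison, thus rested on which bIRI library was used.

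The third comparison set BHB plus bIRI against sham, and it shares its sham libraries with the first. Here 6 members rose, at a background of 21.3% of genes higher and 22.2% lower: Hspb1, Hspa1b, Hspa1a, Hsp90aa1, Dnajb1 and Hsf1. No member was called lower. All 6 lay above sham in every library, but the test had picked them, so this is no added support. The share of all genes separated in this way was not computed. Hsp90ab1 also lay above all sham libraries without being called. At an unadjusted p under 0.05, 6 were higher and 0 lower, beside 26% and 26.1% of all genes. DESeq2 called the same counts, and the median was 0.53 over the members and 0.04 over all genes.

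Hspb1 had a log2 fold change of 4.01 (SE 0.56, adjusted p = 0.000549), which is 16.1-fold, and 2.96 in bIRI. Hspa1b had 2.37 (SE 0.32, adjusted p = 0.000432), beside 2.33 in bIRI, Hspa1a had 1.54 (SE 0.20, adjusted p = 0.000409), beside 0.90, and Hsp90aa1 had 1.02 (SE 0.23, adjusted p = 0.00565), beside 1.27. Hspb1 and Hspa1b were thus first in both comparisons against sham, and Hspa1a and Hsp90aa1 changed places. The ratio of Hspa1b to Hspa1a counts was 2.34, 4.34 and 3.37 in BHB plus bIRI, above all sham libraries. Dnajb1 (0.54, SE 0.19, adjusted p = 0.0425) and Hsf1 (0.52, SE 0.17, adjusted p = 0.0303) were the smallest rises. Both calls were lost when sham replicate 1, 2 or 3 or BHB plus bIRI replicate 1 or 3 was left out, with adjusted p from 0.0536 to 0.146. Bag3 was at 0.09 (95% confidence interval -0.21 to 0.39), Hspa8 at 0.13 (-0.37 to 0.63), Hsph1 at -0.11 (-0.77 to 0.55) and Hsp90ab1 at 0.13 (-0.28 to 0.53).

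**Figure D4:**
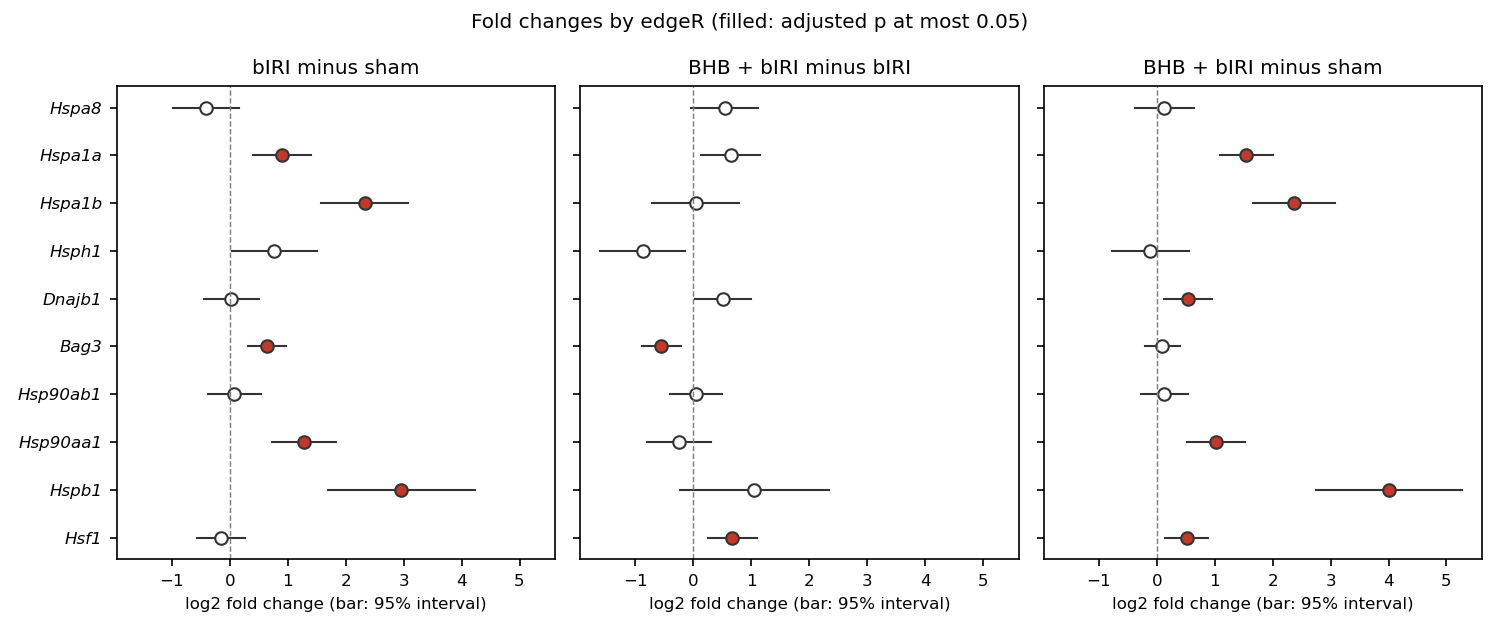
Log2 fold change of each member in the 3 comparisons, with 95% confidence intervals from edgeR and filled points for calls at an adjusted p of 0.05. Hspb1 and Hspa1b are farthest above 0 in both comparisons against sham, and 5 of the 10 intervals of BHB plus bIRI against bIRI cross 0.

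The chaperones' partners are given as lists, whose counts are to be read against the 18.9% of all genes called higher and 16.2% called lower in bIRI against sham, and the 21.3% and 22.2% in BHB plus bIRI against sham. Several counts lie near those shares. Of 8 other HSP70 and HSP110 genes, 2 rose in bIRI against sham, the HSP110 genes Hspa4l (0.82) and Hspa4 (0.71), with a list median of 0.46. With the length and GC offsets Hspa4l was at -0.047, and without sham replicate 2 Hspa4 missed the threshold (adjusted p = 0.0655). Of 16 J-domain genes of the cytosol, 5 rose and 2 fell. The ribosome-associated Dnajc2 (1.11, adjusted p = 0.00161), Dnajc21 (1.54) and Dnajb4 (1.13) rose, while Dnajc13, an endosomal J-domain protein, fell by 1.33 and Dnajb12 fell by 1.03. Of 9 nucleotide exchange factors and HSP70 partners, 1 fell, Hikeshi, which carries HSP70 into the nucleus, by 0.54, and that call was lost in most of the alternative fits.

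Of 17 HSP90 cochaperones, 3 rose and 2 fell in bIRI. Chordc1 was at 25.4, 22.3 and 25.9 CPM in sham and at 49.5 and 64.5 CPM in bIRI, but its change of 1.22 was 0.25 (adjusted p = 0.153) with the length and GC offsets. Cacybp (1.02) and Ppid (1.09), the latter a cyclophilin, also rose. Fkbp4, the steroid receptor cochaperone, fell by 0.81. The phosphatase gene Ppp5c fell by 0.51, or by 0.19 (adjusted p = 0.278) with the offsets. In BHB plus bIRI against sham, 5 of the 17 rose, led by Ptges3, which encodes the HSP90 cochaperone p23 (1.06, adjusted p = 0.0039), and Cacybp (1.01).

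The small heat shock proteins other than Hspb1 had the highest list median, 0.83 in bIRI and 1.66 in BHB plus bIRI against sham. Of 7 tested, 3 rose and 1 fell in bIRI, and 4 rose and 1 fell in BHB plus bIRI. Cryab, which encodes alpha B-crystallin, was at 69.3, 112 and 105 CPM in sham, 533 and 274 CPM in bIRI and 544, 483 and 1218 CPM in BHB plus bIRI. All injured libraries were above all sham libraries, and bIRI replicate 1 was again above replicate 3 (2.08 in bIRI, adjusted p = 0.00596, and 2.97 in BHB plus bIRI, adjusted p = 0.000587). Hspb8, the small heat shock protein that pairs with BAG3, rose by 1.81 in BHB plus bIRI, and its rise of 0.97 in bIRI was 0.31 (adjusted p = 0.405) with bIRI replicate 3 alone. Cryaa, the lens crystallin, was near 1.62 CPM in sham and fell by 2.61 in bIRI. The smooth muscle and injury marker sums given beside Hspb1 were likewise higher in bIRI replicate 1 than in replicate 3. They did not follow Cryab in every library. In bIRI replicate 3 the smooth muscle sum was inside the sham range and Cryab above it. The injury sum was highest in bIRI replicate 1, and Cryab in BHB plus bIRI replicate 3. The part of these cells in the Cryab values was not tested.

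TRiC and prefoldin act on newly made proteins. None of 8 subunits of the chaperonin TRiC was called in bIRI against sham by edgeR, with 0 higher and 0 lower also at an unadjusted p under 0.05 and by DESeq2, and the list median was 0.06. In BHB plus bIRI against sham, 1 rose, Cct3 (0.67, adjusted p = 0.0466), a call lost when any library of these groups was left out. Of 6 subunits of prefoldin, which hands unfolded actin and tubulin to TRiC, 1 rose in bIRI (Vbp1, 0.77, but 0.18 with adjusted p = 0.413 under the length and GC offsets) and 5 in BHB plus bIRI against sham, led by Pfdn6 (1.40, adjusted p = 0.00108), Pfdn4 (1.29) and Pfdn1 (0.96). Against bIRI, 3 prefoldin genes were higher in BHB plus bIRI, led by Pfdn6 (1.16). With the offsets, only 2 of all genes tested were called in that last comparison, beside 2431 without them and 4137 by DESeq2. Calls of other list genes in it are therefore given as values of the first fit only.

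Among 12 further genes that HSF1 is known to induce, 2 rose and 4 fell in bIRI, with a median of -0.23. Serpinh1, the collagen chaperone HSP47, was at 86.4, 87.4 and 103 CPM in sham, at 268 and 127 CPM in bIRI and at 430, 315 and 408 CPM in BHB plus bIRI. Ier5, whose product promotes HSF1 activity, was at 13, 15.9 and 15.5 CPM in sham, 62.3 and 18 CPM in bIRI, and 60.2, 54.7 and 52.4 CPM in BHB plus bIRI. For Ier5, bIRI replicate 1 was near the BHB plus bIRI level and replicate 3 near sham. For Serpinh1, bIRI replicate 1 was below all BHB plus bIRI libraries and replicate 3 above all sham libraries. The changes of 1.10 for Serpinh1 and 1.44 for Ier5 in bIRI were 0.39 and 0.21 with replicate 3 alone. Neither bIRI call held without sham replicate 1 or 2. Against sham, BHB plus bIRI gave 2.06 for Serpinh1 and 1.91 for Ier5. The disaggregase gene Clpb fell by 1.08. Of the other heat shock factor genes and HSF-binding proteins, 4 of 6 were tested. In bIRI against sham 0 were called in either direction by edgeR, also at an unadjusted p under 0.05 and by DESeq2, and in BHB plus bIRI Hsbp1l1 fell by 1.85.

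Chaperones of other compartments are given for comparison with the cytosolic members. The endoplasmic reticulum HSP70 gene Hspa5 (BiP) was at 294, 253 and 236 CPM in sham, at 371 and 535 CPM in bIRI and at 211, 270 and 233 CPM in BHB plus bIRI. Both bIRI libraries lay above all others, and the BHB plus bIRI libraries were inside or just below the sham range (0.79 in bIRI against sham, SE 0.22, adjusted p = 0.022). With bIRI replicate 1 alone that change was 0.51 (adjusted p = 0.0687), and without sham replicate 2 or 3 it missed the threshold. Hsp90b1, the HSP90 of the endoplasmic reticulum, rose by 0.96 in bIRI, with 0.46 (adjusted p = 0.0547) from replicate 1 alone and a missed threshold without sham replicate 1 or 2. Mitochondrial chaperones were lower: Trap1, the mitochondrial HSP90, fell by 1.53 in bIRI and by 1.62 in BHB plus bIRI against sham. Hspa9, the mitochondrial HSP70, was at 1026, 934 and 729 CPM in sham, 570 and 636 CPM in bIRI and 304, 314 and 241 CPM in BHB plus bIRI. These groups were fully separate and in that order. The change was -0.57 (adjusted p = 0.0845) in bIRI against sham, and Hspa9 fell by 1.65 in BHB plus bIRI against sham (adjusted p = 0.000342). Hspd1, the mitochondrial chaperonin HSP60, fell by 1.07 in that comparison, while its partner Hspe1 was at 0.03 (adjusted p = 0.947). The proximal tubule markers fell over the same libraries, as given at the start, and their part in the mitochondrial values was not tested.

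**Figure D5:**
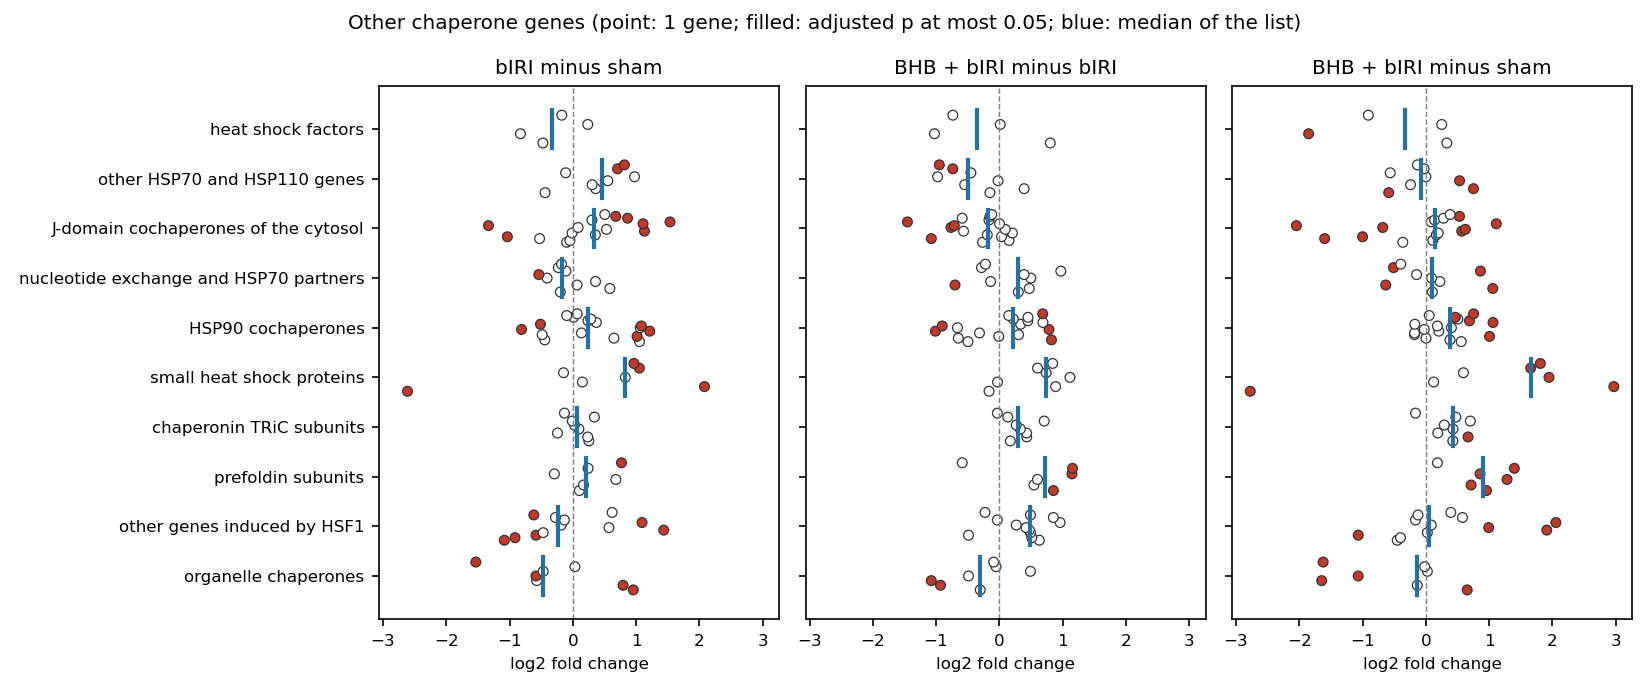
Log2 fold changes of the genes of each partner list in the 3 comparisons, 1 point per gene, filled where called, with the median of each list as a blue bar. The small heat shock proteins have medians of 0.83 and 1.66 against sham and 0.74 in BHB plus bIRI against bIRI, where the prefoldin subunits have 0.73. All values are from the fit without length and GC offsets.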

How the data were processed

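RNA was measured by sequencing of poly(A)-selected libraries of mouse kidney. The submitters' processing notes name HISAT2, featureCounts (Subread), DESeq2 and mm10. Versions, annotation, strand setting and the treatment of reads with several matches are not given in the sources used here. Unnormalized counts were deposited by the authors, 1 table for each of 9 libraries, and 8 were fitted, since bIRI replicate 2 was a mean of the others.

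Symbols and positions came from GENCODE M21 (GRCm38), which named 29220 genes and left 458 unnamed. filterByExpr of edgeR 4.0.16 (R 4.3.3) left 17967 genes. A robust quasi-likelihood model with TMM factors and 1 mean per group (5 residual degrees of freedom) gave 3 contrasts, two-sided, with Benjamini-Hochberg adjustment over all genes tested and a threshold of 0.05. The procedure was tested on simulated data. Alternatives were DESeq2 1.42.0, RLE and upper-quartile factors, TMM without mitochondrial genes and the top 20 genes, no filter, 1 CPM in 3 libraries, only the groups compared, a block for the replicate number, offsets for length and GC content (splines with 5 degrees of freedom), all 9 tables, and each library left out.

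Counts of shared windows compared 100-base stretches of GENCODE transcripts. The members, gene lists and marker lists were chosen with earlier results of these data known. Named genes were the members, 5 organelle chaperones and, per list and comparison, up to 3 called genes in each direction with the largest change and a mean of at least 1 CPM in a group. Hspa1a and Hspa1b counts were also summed and refitted. Medians and counts of a list carry no test of the list.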

Additional observations from a re-analysis of the deposited data

How the results depend on the processing

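The bIRI against sham and BHB plus bIRI against sham results held best: 5 members were called in the first under every setting that kept all 8 libraries except no filter, which called 6, and with each library left out the count was 4 to 7 (all genes 4180 to 9064, main 6303). In BHB plus bIRI against sham it was 4 to 6 with each library left out (all genes 5408 to 10308). BHB plus bIRI against bIRI was the unstable comparison. Its 2 members called became 1 with TMM factors without mitochondrial and top genes, 0 with the compared groups only, 0 with the replicate block, 0 with length and GC offsets, 0 with both, and 5 with all 9 tables, and 0 to 7 with each library left out. DESeq2 called 2 members. Its 2431 genes called became 4137 by DESeq2, 1 with the compared groups only, 0 with the replicate block, 2 with the offsets, 0 with both, 5847 with all 9 tables, and 0 to 8381 with each library left out, beside 6191 at an unadjusted p under 0.05 in the fit reported. The cause was not tested. The replicate numbers did not pair the libraries (correlations of deviations between same-numbered libraries -0.206 to 0.093), and the block gave 5, 0 and 5 members in the 3 comparisons. Directions reversed as follows, all for values that had not passed the threshold except Hspa4l. In bIRI against sham, Hsf1 was 0.154 with offsets and 0.094 with block and offsets, Dnajb1 -0.012 without filter and -0.072 with the block, Hspe1 0.047 with offsets, and Hspa4l -0.047 with offsets and -0.099 with block and offsets. With each library left out, Hsph1 ran from -0.083 to 1.226, Hsp90ab1 from -0.106 to 0.187 and Dnajb1 from -0.324 to 0.258. In BHB plus bIRI against bIRI, Hspa1b was -0.007 at the 1 CPM filter, -0.041 with the block, -0.244 with offsets and -0.344 with block and offsets. With offsets alone and with block and offsets, Hsp90aa1 was 0.092 and 0.163, Hsp90b1 0.003 and 0.09, and Hspe1 -0.455 and -0.287, while Hsp90ab1 was -0.009 with offsets and Hspa4l 0.045 with both. With each library left out, Hspa1b ran from -0.36 to 0.699, Hsp90ab1 from -0.064 to 0.217 and Hsp90b1 from -0.614 to 0.188. In BHB plus bIRI against sham, Hsph1 was 0.207 and 0.178, Hspa5 0.138 and 0.128, and Hspe1 -0.407 and -0.373 with offsets alone and with block and offsets, and Hspe1 ran from -0.133 to 0.263 with each library left out. Counting depth did not limit the detection of the members, since 3 counts correspond to 0.0646 to 0.0815 CPM.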
